A study of Mus musculus with 22 samples.

Results

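Cytosine modification was described along 7 mouse genes that encode the Kv4 potassium channel complex, from its pore-forming subunits to the membrane and calcium-binding proteins that accompany them. The members were the pore genes Kcnd2 and Kcnd3, the dipeptidyl peptidase-like genes Dpp6 and Dpp10, and the Kv channel-interacting protein genes Kcnip1, Kcnip2 and Kcnip4. They were chosen from earlier results on these same bins together with their known place in the channel, so the levels below describe them and no difference between tissues is offered as a test of the choice. Every bin that shares sequence with a member was kept, which gave 46 of 26327 bins of 100 kb for 5-methylcytosine (5mC) and 10 of 2641 bins of 1 Mb for 5-hydroxymethylcytosine (5hmC). The bins of 500 kb on each side of a gene served as its flanks.

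The tissues were the whole cerebral cortex without the hippocampus, the olfactory bulb and the whole cerebellum of female C57BL/6 mice aged 8 weeks, with no treatment and no altered allele. The 5mC data were oxBS-seq libraries, 3 from cortex and 2 from each other tissue, and the 5hmC data were TAB-seq libraries, 3 from every tissue. In oxBS-seq 5hmC is oxidized before bisulfite conversion and only 5mC reads as C, whereas in TAB-seq 5mC is oxidized and only the glucose-protected 5hmC reads as C. The libraries of a tissue came from independent mice. A level is the modified fraction listed for a bin, from 0 to 1, with the SD over libraries as its error. Whole tissue mixes neurons of many kinds with glia, so a change in every cell and a change in the mix of cells cannot be told apart. RNA libraries were not analysed here, and the tissues were therefore not checked against marker transcripts.

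Kv4 channels carry the fast, transient A-type potassium current that opens below the firing threshold of neurons and restrains signals that travel back into dendrites. Kcnd2 and Kcnd3 encode the pores. Dpp6 and Dpp10 encode single-pass membrane proteins related to the dipeptidyl peptidases but without enzyme activity, which bring the channel to the surface and speed its gating, and the Kcnip genes encode calcium-binding proteins of the neuronal calcium sensor family that bind the cytoplasmic start of the pore protein. In neurons 5hmC, made from 5mC by TET enzymes, is known to collect over the bodies of long, transcribed genes.

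The tissues differed as wholes before any gene was considered. The mean over bins ran from 0.660 to 0.739 for 5mC and from 0.0938 to 0.173 for 5hmC over the libraries, with cortex replicate 3 the lowest of the oxBS-seq libraries and cortex replicate 2 the highest of the TAB-seq libraries. Pearson's r across bins between libraries of 1 tissue was 0.947 or more for 5mC and 0.994 or more for 5hmC. The median bin was 0.0307 higher for 5mC in the olfactory bulb than in cortex, 0.0585 higher in the cerebellum than in cortex and 0.0248 higher in the cerebellum than in the olfactory bulb, which is 0.22, 0.43 and 0.19 on the scale of log2(level/(1 − level)). For 5hmC the median bin was lower by these comparisons, at -0.0198, -0.0708 and -0.0498 in level and -0.24, -0.97 and -0.72 on the log2 scale. A difference in a member is therefore given both as measured and relative to the genome, that is, after the median difference over all bins was taken away.

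Against this background the 46 bins of the 7 genes divided by gene. A bin is named called where limma gave an adjusted p-value under 0.05 over all 25664 bins listed above 0 and below 1. Between olfactory bulb and cortex 17 of the 46 bins were called, 13 higher and 4 lower in the olfactory bulb, where 39.7% of all bins were called, 37.6% higher and 2.18% lower. Between cerebellum and cortex 35 were called, 28 higher and 7 lower in the cerebellum, against 76.4% of all bins, 71.9% higher and 4.44% lower. Between cerebellum and olfactory bulb 20 were called, 16 higher and 4 lower in the cerebellum, against 43% of all bins, 35.3% higher and 7.69% lower. Without olfactory bulb replicate 2 the lower calls fell to 2 between olfactory bulb and cortex and to 2 between cerebellum and olfactory bulb, and without cerebellum replicate 2 to 4 between cerebellum and cortex and to 2 between cerebellum and olfactory bulb. Since these contrasts led to the choice of the genes, nothing is read from the counts. The median difference over the 46 bins was 0.00451, 0.0576 and 0.0213 in level for these comparisons, beside the genome's 0.0307, 0.0585 and 0.0248.

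The direction of these calls moved with the scaling. With every library centred on its own median, 12 bins were called higher and 20 lower in the olfactory bulb than in cortex, beside 8.81% and 9.9% of all bins, 16 higher and 17 lower in the cerebellum than in cortex, beside 25.7% and 24.3%, and 13 higher and 15 lower in the cerebellum than in the olfactory bulb, beside 22.1% and 21.3%. Of the 13 bins called higher in the olfactory bulb without centring, 12 were in Kcnip4, and with centring 11 of the 12 were in Kcnip4. The 20 lower bins with centring were 9 of Dpp6, 5 of Kcnd2, 4 of Kcnip1 and 2 of Kcnd3.

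**Figure D1:**
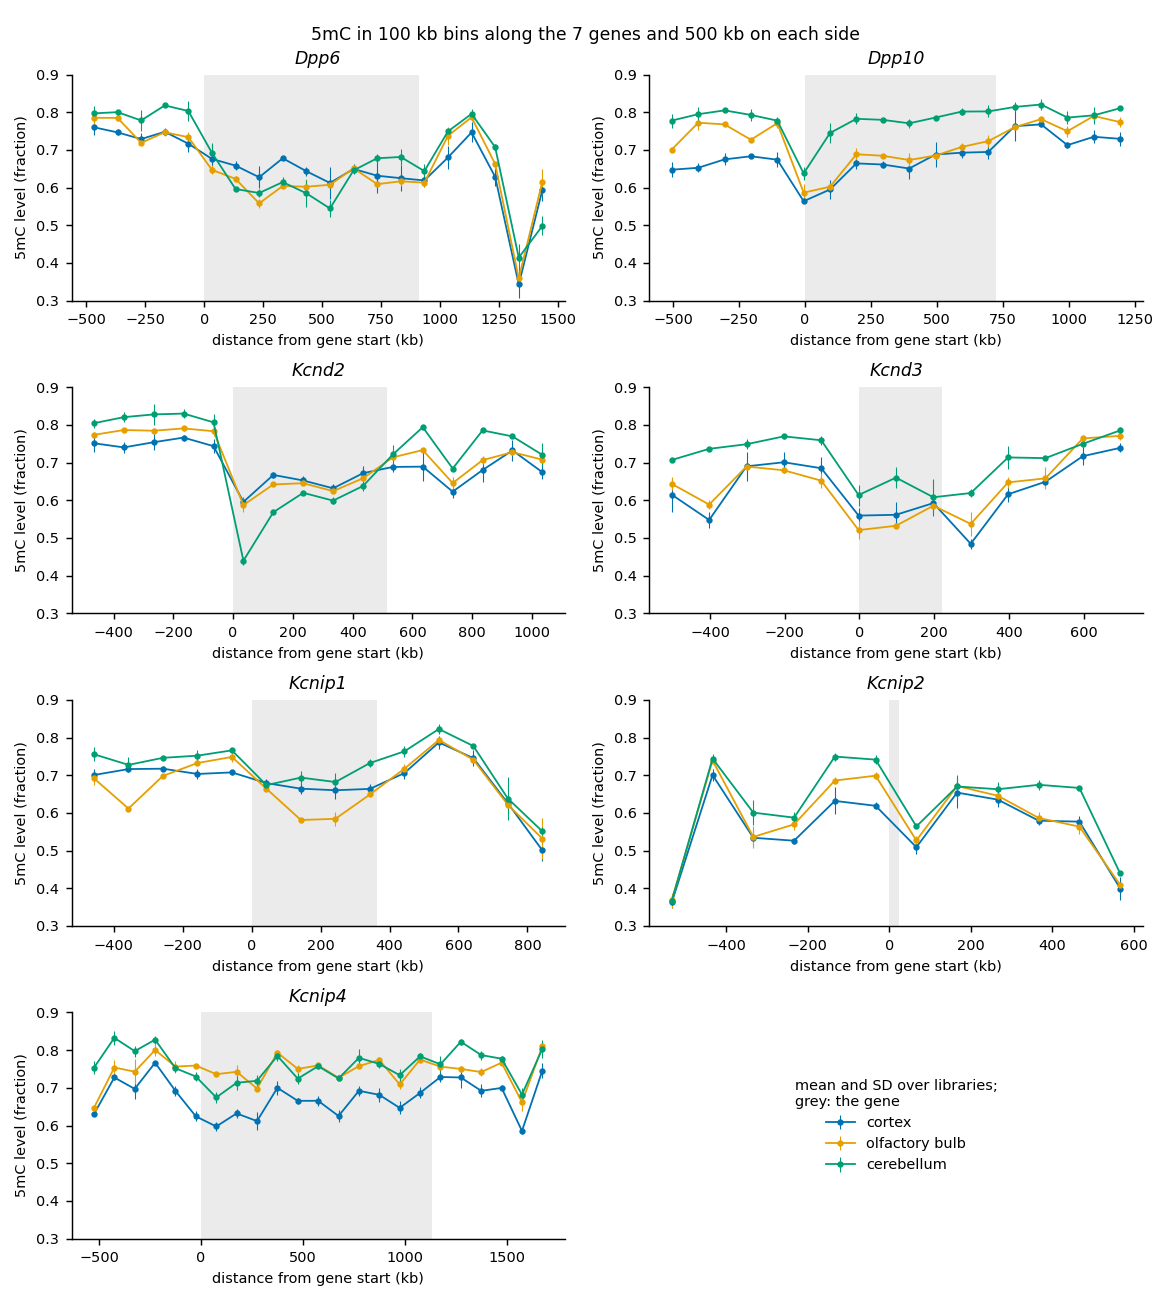
5mC level (fraction, vertical axis, from 0.3 to 0.9) in 100 kb bins against the distance of the bin's centre from the gene start in kb, read in the direction of transcription, for the 7 genes (grey) and 500 kb on each side. Points are tissue means and bars SDs over 3 cortex, 2 olfactory bulb and 2 cerebellum libraries. Cerebellum reached 0.439 at the start of Kcnd2 but stayed at 0.638 to 0.802 over Dpp10, and cortex was the lowest tissue along Kcnip4.

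Kcnd2, which encodes the main Kv4 pore of dendrites, held the lowest 5mC of any of the 46 bins, at its start and in the cerebellum. The gene lies at chr6:21215503-21729805 (GRCm38, plus strand, ENSMUSG00000060882.5), is intronic almost throughout, and has 1 coding start site. Its promoter is rich in CpG sites, which is why it is shown here. The 250 bases before the RefSeq start (chr6:21215096-21215345, plus strand, GRCm38.p6) hold 22 CpG sites, in capitals, where the median over the 32851 promoter windows of the table is 6 and 37.8% of windows have 10 or more.

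Kcnd2: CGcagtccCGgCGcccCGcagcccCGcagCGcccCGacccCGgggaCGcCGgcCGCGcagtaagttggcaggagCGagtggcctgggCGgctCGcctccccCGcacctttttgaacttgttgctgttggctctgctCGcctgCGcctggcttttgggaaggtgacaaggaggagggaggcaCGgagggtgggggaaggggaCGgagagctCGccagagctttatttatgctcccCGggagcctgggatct

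A CpG reads the same on both strands, so 1 count serves both. The 100 kb bin around this window (chr6:21200001-21300000) has 698 CpG sites in all, so the level of the window itself cannot be seen in it. In that bin cerebellum had 5mC levels of 0.447 and 0.432, cortex 0.583, 0.599 and 0.605, and olfactory bulb 0.601 and 0.574. The cerebellum libraries were thus well below both other tissues, while cortex and olfactory bulb overlapped. The difference from cortex was -0.156 as measured and -0.215 relative to the genome, and the difference from olfactory bulb was -0.148 and -0.172. In the next bin cerebellum stood at 0.573 and 0.563 and cortex at 0.669, 0.674 and 0.659. The gap narrowed further along the gene, to between -0.0340 and -0.0327 in the 3 bins after that, and in the last bin (chr6:21700001-21800000) cerebellum was higher than cortex as measured, at 0.722 ± 0.0257 (SD, n = 2) against 0.688 ± 0.0138 (SD, n = 3), but not relative to the genome.

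Averaged over its 6 bins, Kcnd2 had 5mC levels of 0.653, 0.659 and 0.641 in the cortex libraries, 0.650 and 0.640 in the olfactory bulb and 0.605 and 0.590 in the cerebellum. Cerebellum was the lowest tissue and did not overlap the others, while olfactory bulb and cortex overlapped. The difference between cerebellum and cortex was -0.0536, and -0.112 relative to the genome. Just upstream the order was the opposite, with medians over 5 flanking bins of 0.751 in cortex, 0.784 in the olfactory bulb and 0.820 in the cerebellum.

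In 5hmC the 1 Mb bin that holds Kcnd2 (chr6:21000001-22000000, 51.4% of it in the gene) hardly differed between tissues. It had 0.186, 0.201 and 0.183 in cortex, 0.190, 0.205 and 0.194 in the olfactory bulb and 0.188, 0.199 and 0.193 in the cerebellum, and the libraries of the 3 tissues overlapped. Relative to the genome the cerebellum was 0.0742 above cortex, because the median bin was lower there. The next 1 Mb downstream had 0.191 ± 0.0100 in cortex, 0.157 ± 0.00600 in the olfactory bulb and 0.0790 ± 0.00159 in the cerebellum (SD, n = 3 each), and the 1 Mb upstream 0.109 ± 0.00822, 0.0898 ± 0.00931 and 0.0997 ± 0.00418.

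Kcnd3, the other pore gene of the set, was low in 5mC in each tissue and lowest in the olfactory bulb. It lies at chr3:105452330-105674002 (plus strand, ENSMUSG00000040896.16) in a region with 16 other coding genes within 500 kb, and its 3 bins hold 9.93 CpG sites per kb. The mean level of the gene was 0.565, 0.596 and 0.552 in cortex, 0.555 and 0.537 in the olfactory bulb and 0.652 and 0.602 in the cerebellum. Cortex and olfactory bulb overlapped, and cerebellum lay above both as measured. Relative to the genome, however, the cerebellum differed from cortex by -0.00226, so that its higher level was about that of the median bin, and olfactory bulb differed from cortex by -0.0556. The middle bin (chr3:105500001-105600000) showed the widest gaps of cerebellum from the other tissues, with 0.561 ± 0.0333 in cortex (SD, n = 3), 0.532 ± 0.00644 in the olfactory bulb and 0.660 ± 0.0281 in the cerebellum (SD, n = 2 each).

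The 1 Mb bin of Kcnd3 had the highest 5hmC of the 10 bins in cortex and in the olfactory bulb. Its levels were 0.213, 0.224 and 0.205 in cortex, 0.232, 0.230 and 0.216 in the olfactory bulb and 0.153, 0.152 and 0.159 in the cerebellum. Cerebellum did not overlap the others and was -0.0594 from cortex as measured, yet 0.0114 above it relative to the genome. The gene makes up 22.2% of this bin, which 12 other coding genes share.

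Dpp6 was a broad dip in 5mC whose depth and place differed by tissue. It spans 910 kb at chr5:26817203-27727505 (plus strand, ENSMUSG00000061576.15), 98.6% of it intronic, and its 4 coding start sites lie in 4 separate bins of its first 500 kb. RefSeq windows before 3 of these starts are shown because they lie in or next to the bins where both other tissues had less 5mC than cortex. They hold 8, 6 and 10 CpG sites, in capitals, and lie at chr5:26817107-26817356, chr5:27048949-27049198 and chr5:27261685-27261934, all on the plus strand of GRCm38.p6.

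Dpp6 upstream start: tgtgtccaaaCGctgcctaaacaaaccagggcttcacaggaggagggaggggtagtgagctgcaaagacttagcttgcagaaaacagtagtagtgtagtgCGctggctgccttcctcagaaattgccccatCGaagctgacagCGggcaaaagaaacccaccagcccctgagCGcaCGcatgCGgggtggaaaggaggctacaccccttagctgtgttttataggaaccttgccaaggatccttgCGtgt

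Dpp6 middle start: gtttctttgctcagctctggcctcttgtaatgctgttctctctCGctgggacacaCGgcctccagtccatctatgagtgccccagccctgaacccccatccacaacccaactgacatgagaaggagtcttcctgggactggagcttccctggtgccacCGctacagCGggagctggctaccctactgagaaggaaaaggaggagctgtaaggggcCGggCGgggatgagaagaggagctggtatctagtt

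Dpp6 downstream start: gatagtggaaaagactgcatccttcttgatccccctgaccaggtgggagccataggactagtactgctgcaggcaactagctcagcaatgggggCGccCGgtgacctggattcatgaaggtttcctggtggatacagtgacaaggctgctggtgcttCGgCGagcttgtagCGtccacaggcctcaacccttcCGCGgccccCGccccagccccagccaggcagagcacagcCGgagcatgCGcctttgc

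The upstream window is in the bin that was the gene's most methylated in the cerebellum (chr5:26800001-26900000), at 0.676 ± 0.0369 in cortex (SD, n = 3), 0.647 ± 0.0117 in the olfactory bulb and 0.692 ± 0.0255 in the cerebellum (SD, n = 2 each). In the 5 bins that follow, the means of both other tissues were below that of cortex. Olfactory bulb had its widest gap at chr5:27100001-27200000, with 0.603 and 0.606 against 0.678, 0.682 and 0.674 in cortex, a difference of -0.0736 and of -0.104 relative to the genome. Cerebellum had its widest gap and its lowest level at chr5:27300001-27400000, with 0.560 and 0.529 against 0.609, 0.657 and 0.571 in cortex, a difference of -0.0677 and of -0.126 relative to the genome. The cortex libraries of that bin spread over more than the gap between them and cerebellum. Toward the gene's end the order turned, and at chr5:27500001-27600000 cerebellum had 0.678 ± 0.0122, olfactory bulb 0.609 ± 0.00270 (SD, n = 2 each) and cortex 0.631 ± 0.0471 (SD, n = 3), where libraries of cerebellum and cortex overlapped, although relative to the genome cerebellum remained below cortex in all 10 bins.

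Because the parts of the gene went in different directions, the gene mean hid most of this. It was 0.646, 0.661 and 0.619 in cortex, 0.614 and 0.612 in the olfactory bulb and 0.638 and 0.615 in the cerebellum. Olfactory bulb lay just below cortex without overlap, and cerebellum overlapped cortex. Relative to the genome the differences from cortex were -0.0595 in the olfactory bulb and -0.0739 in the cerebellum, and cerebellum was 0.0134 above olfactory bulb as measured but -0.0114 from it relative to the genome.

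The 1 Mb bin with most of Dpp6 had more 5hmC in the cerebellum than in cortex, whereas 97.6% of all bins were called lower there. It was called higher, but this call was lost without replicate 1 or 3 of cortex or of cerebellum. The 1 Mb bin that holds most of the gene (chr5:27000001-28000000, 72.8% in Dpp6) had 0.185, 0.193 and 0.179 in cortex, 0.210, 0.219 and 0.211 in the olfactory bulb and 0.206, 0.200 and 0.207 in the cerebellum. Cortex lay below both other tissues without overlap. The differences were 0.0272 in the olfactory bulb and 0.0181 in the cerebellum, or 0.0470 and 0.0889 relative to the genome. The bin with the gene's first 183 kb (chr5:26000001-27000000) had less 5hmC, at 0.133 ± 0.00833 in cortex, 0.144 ± 0.00505 in the olfactory bulb and 0.124 ± 0.000711 in the cerebellum (SD, n = 3 each), and there the libraries of cerebellum and cortex overlapped. Only 18.3% of this bin is in Dpp6 and 9 coding genes overlap it, so its level is mostly that of other sequence. Over both bins the gene mean of the cerebellum was 0.00485 above that of cortex, and their libraries overlapped.

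Dpp10, the partner gene of Dpp6, had the reverse pattern in the cerebellum. In and beside the gene, 5mC was higher and 5hmC lower there than in the other tissues. The gene's mean 5mC of 0.763 was still near the cerebellum's genome median of 0.753. Dpp10 lies at chr1:123321471-124045559 (minus strand, ENSMUSG00000036815.16), with no other coding gene within 500 kb, and its bins are poor in CpG sites, at 4.18 per kb. The 250 bases before its RefSeq start (chr1:124045560-124045809, minus strand, GRCm38.p6) hold 14 CpG sites, in capitals, and are shown because the bin around them was the least methylated of the gene.

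Dpp10: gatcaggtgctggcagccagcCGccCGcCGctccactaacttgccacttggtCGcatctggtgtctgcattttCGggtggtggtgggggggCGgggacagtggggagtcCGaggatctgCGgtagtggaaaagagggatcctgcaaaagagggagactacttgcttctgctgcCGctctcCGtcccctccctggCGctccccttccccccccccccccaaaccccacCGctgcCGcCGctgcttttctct

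The mean 5mC level of Dpp10 was 0.662, 0.657 and 0.634 in cortex, 0.669 and 0.669 in the olfactory bulb and 0.772 and 0.754 in the cerebellum. Cerebellum stood clear of the others, by 0.112 from cortex and 0.0943 from olfactory bulb, or 0.0534 and 0.0695 relative to the genome. Olfactory bulb was 0.0177 above cortex as measured and -0.0130 from it relative to the genome. Cerebellum was higher than cortex in each of the 8 bins, by 0.0739 to 0.150, as it was in 22580 of all 25664 bins on the log2 scale. The flanks of Dpp10 had the same order of tissues. They stood at 0.708 ± 0.0125 in cortex (SD, n = 3), 0.765 ± 0.00442 in the olfactory bulb and 0.798 ± 0.0137 in the cerebellum (SD, n = 2 each). The start bin (chr1:124000001-124100000) had 0.564 ± 0.00413 in cortex (SD, n = 3), 0.587 ± 0.0221 in the olfactory bulb and 0.638 ± 0.0173 in the cerebellum (SD, n = 2 each). The next bin into the gene (chr1:123900001-124000000) gave the widest gap, with 0.604, 0.614 and 0.567 in cortex, 0.609 and 0.596 in the olfactory bulb and 0.763 and 0.727 in the cerebellum.

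In 5hmC the bin with 67.9% of its length in Dpp10 (chr1:123000001-124000000) had 0.185, 0.198 and 0.178 in cortex, 0.191, 0.193 and 0.184 in the olfactory bulb and 0.0817, 0.0746 and 0.0814 in the cerebellum. Cortex and olfactory bulb overlapped, and cerebellum was far below both, at -0.108 from cortex and -0.0368 relative to the genome. The bin that holds the start (4.56% in the gene) had 0.177 ± 0.00443 in cortex, 0.136 ± 0.00414 in the olfactory bulb and 0.0508 ± 0.00421 in the cerebellum (SD, n = 3 each), the lowest 5hmC of the 10 bins. Between olfactory bulb and cortex the sign of the gene mean, -0.0189, rested on this start bin, since the bin mostly inside the gene gave 0.00283. The next 1 Mb downstream had 0.0648 ± 0.00135 in the cerebellum. Cortex had 0.131 ± 0.00410 there and olfactory bulb 0.119 ± 0.00628 (SD, n = 3 each).

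**Figure D2:**
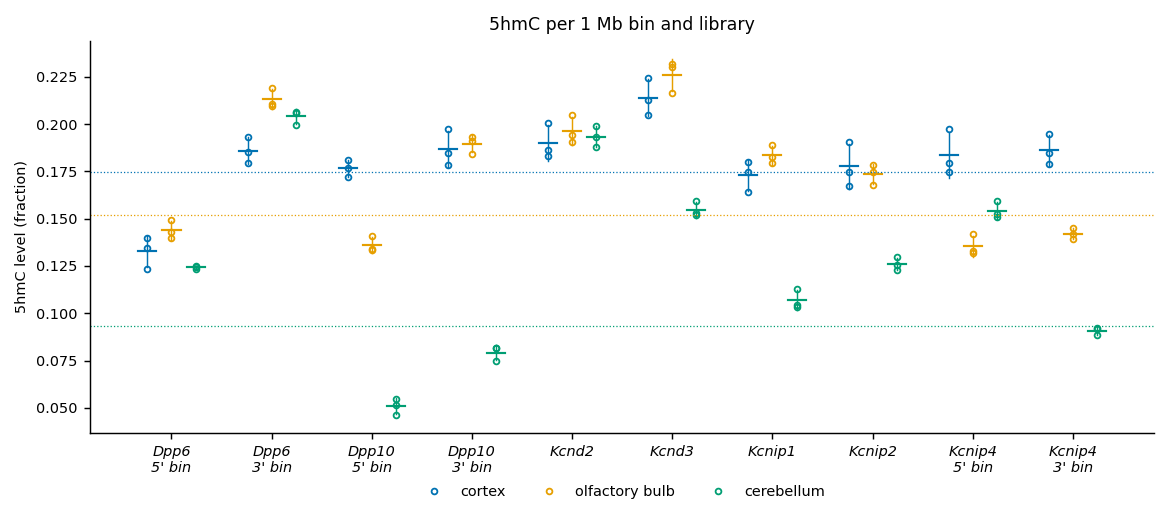
5hmC level (fraction, vertical axis) in the 10 bins of 1 Mb that overlap the 7 genes. Circles are the 3 TAB-seq libraries of each tissue, horizontal bars the means, vertical bars the SDs and dotted lines the genome medians of the tissues, 0.175 in cortex, 0.152 in the olfactory bulb and 0.0931 in the cerebellum. Cerebellum lay among the other tissues at Kcnd2 (0.193) and passed cortex in the later bin of Dpp6 (0.204), but was at 0.0508 and 0.0792 in the bins of Dpp10.

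Among the calcium-binding partners, Kcnip1 was low in the olfactory bulb in its middle, though not only there. A flanking bin centred at -357 kb from the gene start had 0.611 ± 0.00529 in the olfactory bulb (SD, n = 2). Cortex had 0.716 ± 0.00770 in that bin (SD, n = 3) and cerebellum 0.727 ± 0.0201 (SD, n = 2). In the upstream bin nearest the gene, olfactory bulb was above cortex, at 0.748 against 0.707. Kcnip1 lies at chr11:33629339-33993152 (minus strand, ENSMUSG00000053519.15). The bin that holds its 3 coding starts in GENCODE (chr11:33800001-33900000) had 0.580 and 0.583 in the olfactory bulb, 0.670, 0.674 and 0.648 in cortex and 0.707 and 0.680 in the cerebellum. Olfactory bulb lay below both other tissues, at -0.0832 from cortex and -0.114 relative to the genome. The neighbouring bin toward the 3′ end (chr11:33700001-33800000) had 0.584 ± 0.0190 in the olfactory bulb, 0.682 ± 0.0229 in the cerebellum (SD, n = 2 each) and 0.660 ± 0.0235 in cortex (SD, n = 3), while the outermost bins, where the gene starts and ends, had 0.664 and 0.649 in the olfactory bulb, at -0.0149 and -0.0148 from cortex.

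Over the gene, Kcnip1 had 0.675, 0.675 and 0.651 in cortex, 0.623 and 0.616 in the olfactory bulb and 0.707 and 0.684 in the cerebellum. The tissues did not overlap, in the order olfactory bulb, cortex, cerebellum, but cerebellum was 0.0286 above cortex as measured and -0.0299 from it relative to the genome. In 5hmC its 1 Mb bin, 36.4% of it in the gene and overlapped by 10 coding genes, had 0.175, 0.180 and 0.164 in cortex, 0.182, 0.189 and 0.179 in the olfactory bulb and 0.103, 0.105 and 0.113 in the cerebellum. Cerebellum was -0.0660 from cortex, which relative to the genome was 0.00483.

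Kcnip4 had less 5mC in cortex than in the other tissues, in its flanks as well as in the gene. It is the longest, 1135 kb at chr5:48389502-49524907 (minus strand, ENSMUSG00000029088.16) with 99.7% intron. Its mean 5mC level was 0.668, 0.662 and 0.644 in cortex, 0.751 and 0.747 in the olfactory bulb and 0.752 and 0.733 in the cerebellum. Cortex was the lowest, by 0.0908 from olfactory bulb and 0.0841 from cerebellum, or 0.0601 and 0.0256 relative to the genome, and the latter tissues overlapped. Olfactory bulb was higher than cortex in all 13 bins, by 0.0274 to 0.139, and so was cerebellum, by 0.0335 to 0.107. Of all 25664 bins, 22664 were higher in the olfactory bulb than in cortex on the log2 scale, and 22580 in the cerebellum. The flanks of Kcnip4 were also lowest in cortex, at 0.698 ± 0.0124 (SD, n = 3). They stood at 0.747 ± 0.000502 in the olfactory bulb and 0.785 ± 0.00516 in the cerebellum (SD, n = 2 each).

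The gap to olfactory bulb was widest near the gene's start. At chr5:49400001-49500000 cortex had 0.612, 0.586 and 0.594, olfactory bulb 0.736 and 0.737 and cerebellum 0.685 and 0.664, so that the 3 tissues were separate. The bin of the gene start (chr5:49500001-49600000) had 0.624 ± 0.0130 in cortex (SD, n = 3), 0.759 ± 0.00598 in the olfactory bulb and 0.730 ± 0.0129 in the cerebellum (SD, n = 2 each). At the gene's end (chr5:48300001-48400000) the levels were nearest, at 0.729 ± 0.0124, 0.756 ± 0.0105 and 0.762 ± 0.0231.

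The 5hmC of Kcnip4 was highest in cortex in both of its bins, and the other tissues changed places between them. The gene makes up 61.0% of the bin toward its 3′ end and 52.5% of the bin toward its 5′ end. Toward the 3′ end (chr5:48000001-49000000) the levels were 0.185, 0.195 and 0.179 in cortex, 0.139, 0.145 and 0.142 in the olfactory bulb and 0.0883, 0.0924 and 0.0917 in the cerebellum. Toward the 5′ end (chr5:49000001-50000000) they were 0.179, 0.198 and 0.174 in cortex, 0.132, 0.142 and 0.133 in the olfactory bulb and 0.151, 0.159 and 0.152 in the cerebellum. The tissues did not overlap in either bin, and cerebellum was below olfactory bulb in the first and above it in the second. Relative to the genome the cerebellum was -0.0246 from cortex in the first and 0.0412 above it in the second.

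Kcnip2 cannot be read on its own at this resolution. It is 24.2 kb long (chr19:45791839-45816061, minus strand, ENSMUSG00000025221.15), so its 2 bins of 100 kb lie mostly outside it, and 17 other coding genes lie within 500 kb. The bins had a mean 5mC of 0.570, 0.573 and 0.549 in cortex, 0.620 and 0.605 in the olfactory bulb and 0.655 and 0.650 in the cerebellum, which did not overlap. The 1 Mb bin, 2.42% of it in the gene, had 5hmC of 0.178 ± 0.0119 in cortex, 0.174 ± 0.00529 in the olfactory bulb and 0.126 ± 0.00337 in the cerebellum (SD, n = 3 each). Cerebellum was -0.0516 from cortex in 5hmC as measured and 0.0193 above it relative to the genome.

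**Figure D3:**
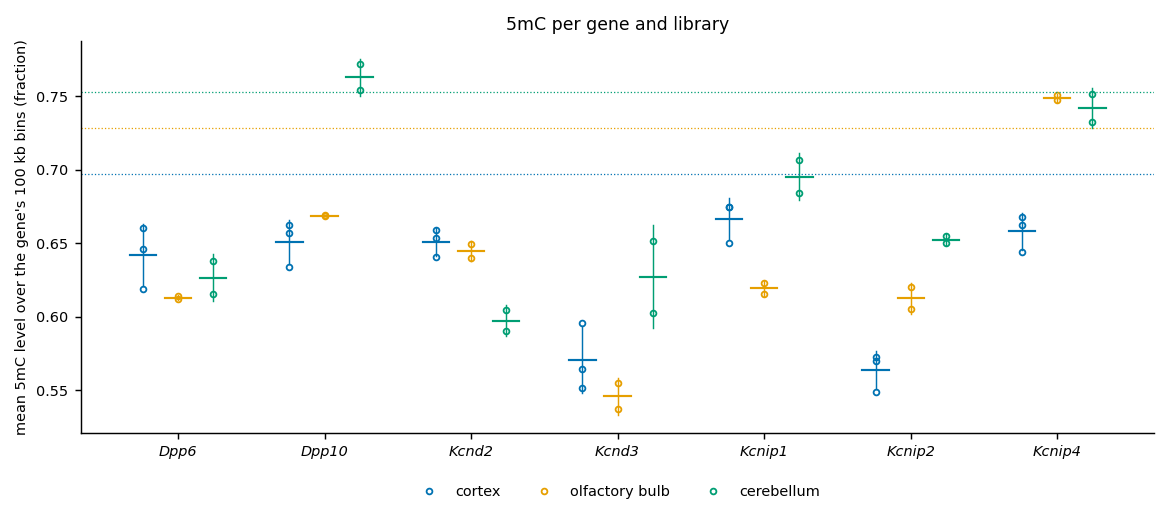
Mean 5mC level (fraction, vertical axis, not starting at 0) over the 100 kb bins of each gene. Circles are libraries (3 cortex, 2 olfactory bulb, 2 cerebellum), horizontal bars means, vertical bars SDs and dotted lines the genome medians of the tissues, 0.697, 0.728 and 0.753. Cerebellum was lowest of the tissues at Kcnd2 (0.598) and highest at Dpp10 (0.763), and cortex was lowest at Kcnip4 (0.658), all as measured and also relative to the genome.

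Each gene was next set against its own surroundings, which removes a shift shared by a whole library. Over the 8 bins wholly within the flanks, 5mC was lower in the gene than beside it in every library for 6 of the 7 genes, and for Kcnip4 in cortex and cerebellum. Among 998 protein-coding genes of at least 200 kb the gene was below its flanks in 62% in cortex, 61.6% in the olfactory bulb and 53.5% in the cerebellum. These shares were not asked of every library, unlike the count of members. The 6 genes include Kcnip2, which is too short to be among the 998 and whose sign turned with wider flanks. At Kcnd2 the gene minus its flanks was -0.0694, -0.0735 and -0.0517 in cortex, -0.0946 and -0.105 in the olfactory bulb and -0.191 and -0.193 in the cerebellum. The tissues were separate, and the mean of cerebellum, -0.192, ranked 18 from the lowest among the 998 genes, whose median was -0.0045.

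At Dpp6 the depth of the dip was -0.0330, -0.0142 and -0.0283 in cortex, -0.0738 and -0.0823 in the olfactory bulb and -0.105 and -0.108 in the cerebellum, again without overlap. The size of this dip depended on the width of the flanks, with means of -0.0561, -0.122 and -0.150 for flanks of 200 kb and -0.0303, -0.0881 and -0.0861 for flanks of 1 Mb, where cerebellum and olfactory bulb changed places. Dpp10 had its deepest dip in the olfactory bulb, -0.0960 ± 0.00472 (SD, n = 2), and its shallowest in the cerebellum, -0.0346 ± 0.00104 (SD, n = 2). Kcnip1 likewise was deepest in the olfactory bulb, -0.0884 ± 0.00208 (SD, n = 2), against -0.0467 ± 0.00641 in cortex (SD, n = 3). At Kcnip4 cortex had -0.0402 ± 0.00193 (SD, n = 3) and cerebellum -0.0425 ± 0.00831 (SD, n = 2), while olfactory bulb was at 0.00373 and 0.000917, level with its flanks. The values of Kcnip2 turned positive with flanks of 1 Mb, at 0.0133 in cortex, 0.0423 in the olfactory bulb and 0.0549 in the cerebellum, so no dip is described there.

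**Figure D4:**
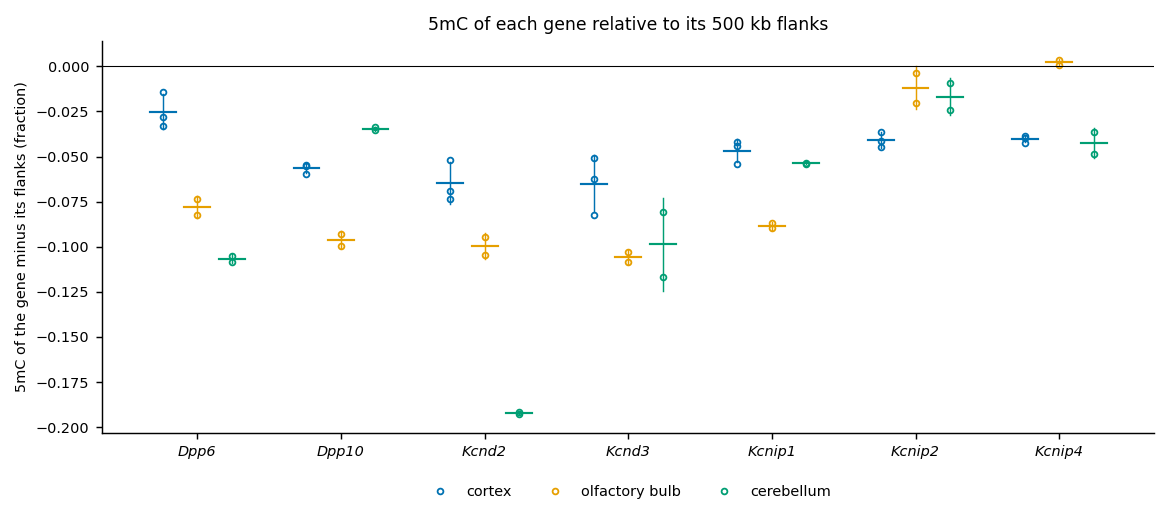
5mC of each gene minus the mean of its flanking bins within 500 kb (difference of fractions, vertical axis, line at 0). Circles are libraries (3 cortex, 2 olfactory bulb, 2 cerebellum), horizontal bars means and vertical bars SDs. The cerebellum at Kcnd2 (-0.192) lies lowest, and the olfactory bulb at Kcnip4 (0.00232) lies at its flanks.

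For 5hmC the 10 bins of 1 Mb gave the following calls. Between olfactory bulb and cortex 4 bins were called, 1 higher (Dpp6) and 3 lower (1 of Dpp10 and 2 of Kcnip4), where 70.9% of the 2581 listed bins were called, 3.25% higher and 67.7% lower. Without cortex replicate 2 there were 7 calls, 4 higher and 3 lower. Between cerebellum and cortex 8 were called, 1 higher (Dpp6) and 7 lower, against 98.1% of all bins, 0.426% higher and 97.6% lower. The higher call of Dpp6 in this comparison was lost when replicate 1 or 3 of cortex or replicate 1 or 3 of cerebellum was left out. Between cerebellum and olfactory bulb 8 were called, 1 higher (Kcnip4) and 7 lower, against 93% of all bins, 1.2% higher and 91.8% lower. The median differences over the 10 bins were 0.00456, -0.0555 and -0.0495 beside the genome's -0.0198, -0.0708 and -0.0498.

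With libraries centred on their medians the 10 bins were all called and the majority turned, with 7 higher and 3 lower in each comparison. Over all bins centring gave 36.2% higher and 33% lower between olfactory bulb and cortex, 50.3% and 40.1% between cerebellum and cortex, and 50.9% and 39.1% between cerebellum and olfactory bulb. Both bins of Dpp10 were among the 3 lower bins in the cerebellum against cortex. As above, these contrasts chose the genes and the counts are given without inference.

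Where 5mC and 5hmC could be set side by side, at 1 Mb, they moved in opposite senses in most bins of the genes. Cerebellum had more 5mC and less 5hmC than cortex in 8 of the 10 bins, as did 91.6% of the 2581 bins, and olfactory bulb did so in 4 of 10, against 87.9%. Across all bins Pearson's r between the 2 differences was -0.723 for cerebellum and -0.691 for olfactory bulb, as a description over bins whose differences share the cortex libraries within each assay. At the Dpp10 bin chr1:123000001-124000000, 5mC was 0.0999 higher and 5hmC 0.108 lower in the cerebellum than in cortex, and the sum of the 2 modifications was 0.868 ± 0.0136 and 0.876 ± 0.0197, where the error combines both SDs. These sums differed by less than their error, whereas the sum of olfactory bulb, 0.895 ± 0.00593, was further from that of cerebellum (-0.0273, error 0.0148). At the Kcnd2 bin neither differed by more than 0.00336 in size, and the sums were 0.863 ± 0.0110 and 0.863 ± 0.0164.

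The share of the sum that was 5hmC ranged widely among the genes in the cerebellum, from 6.20% in the start bin of Dpp10 to 22.4% at Kcnd2 and 23.8% in the later bin of Dpp6, around a genome median of 11.1%. In cortex it ran from 15.7% in the earlier bin of Dpp6 to 26.0% at Kcnd3, around 20.5%, and in the olfactory bulb from 15.2% in the 5′ bin of Kcnip4 to 27.1% at Kcnd3, around 17.7%. The sums differed by more than their error in 4 of 10 bins between olfactory bulb and cortex, in 7 of 10 between cerebellum and olfactory bulb and in 3 of 10 between cerebellum and cortex, the last widest at Kcnip4 toward its 5′ end, where cerebellum had 0.910 ± 0.0129 and cortex 0.855 ± 0.0174. No share of all bins is given beside these counts. Median sums over the 2581 bins also differed by tissue, at 0.851 in cortex, 0.863 in the olfactory bulb and 0.838 in the cerebellum. Nothing is therefore read from the counts of sums.

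**Figure D5:**
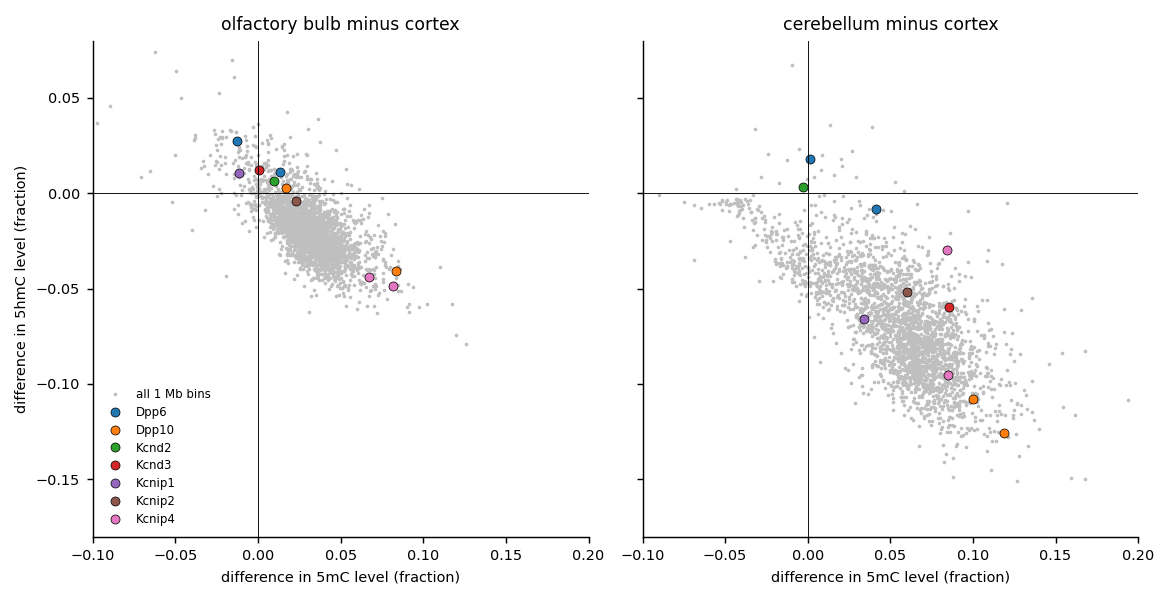
Difference in 5hmC level (vertical axis) against difference in 5mC level (horizontal axis), both as fractions, in 1 Mb bins, for olfactory bulb minus cortex and cerebellum minus cortex. Grey points are the 2581 bins and coloured points the 10 bins of the 7 genes. The bin of Kcnd2 and the later bin of Dpp6 lie near 0 in 5mC, with 5hmC differences of 0.00336 and 0.0181 in the cerebellum, while those of Dpp10 lie at the opposite end, at -0.108 and -0.126.

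Among the 998 long genes the 6 members long enough to be ranked were spread over the scale in the cerebellum. For the difference in gene 5mC between cerebellum and cortex, Kcnd2 ranked 18, Dpp6 59, Kcnip1 188 and Kcnd3 353 from the lowest, and Dpp10 ranked 171 and Kcnip4 376 from the highest, around a median of 0.0710. For the difference in 5hmC, Dpp6 ranked 10, Kcnd2 11, Kcnd3 346, Kcnip4 381 and Kcnip1 412 from the highest and Dpp10 36 from the lowest, around -0.0726. Between olfactory bulb and cortex Kcnip1 ranked 35, Dpp6 59, Kcnd3 75, Kcnd2 136 and Dpp10 291 from the lowest in 5mC and Kcnip4 48 from the highest. In 5hmC Kcnip4 ranked 25 and Dpp10 471 from the lowest, and Dpp6 ranked 33, Kcnd3 60, Kcnip1 73 and Kcnd2 104 from the highest. These ranks place genes that were chosen on such values and are no test, and Kcnip2 is too short to be among them.

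The genes whose 3 tissue means of 5mC lay nearest, among 953 autosomal genes of at least 200 kb after centring on each tissue's genome median, were Magi1, Kcnn2 and Aff3 for Dpp10, at Euclidean distances of 0.00740, 0.0107 and 0.0111. For Kcnd2 they were Plcb4, Sh3gl2 and Kirrel3 (0.0206, 0.0337 and 0.0340), and for Dpp6 Tiam1, Oxr1 and Sh3gl2 (0.0246, 0.0248 and 0.0250). Kcnip4 was nearest to Mycbp2, 9330182L06Rik and Tmem132d (0.0144, 0.0202 and 0.0212) and Kcnip1 to Myo3b, Cdh4 and Cacna1d (0.0212, 0.0224 and 0.0233). The nearest to Kcnd3 were Phf21a, Dlgap1 and Tnik (0.0311, 0.0355 and 0.0361) and to Kcnip2 Strbp, Chd9 and Smg6 (0.00912, 0.0110 and 0.0163). The likeness rests on 3 tissue means.

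A list of 13 other genes of the pathway gave 21 bins of 100 kb. It held the remaining pore and interacting protein genes (Kcnd1 and Kcnip3), beta and minK-related subunits (Kcnab1, Kcnab2, Kcne2 and Kcne3), scaffold and actin-binding proteins (Dlg1, Dlg4 and Flna) and the active relatives of Dpp6 (Dpp4, Dpp8, Dpp9 and Fap). In 5mC 10 of these bins were called in the olfactory bulb against cortex, all higher, beside 37.6% of all bins higher and 2.18% lower. Between cerebellum and cortex 13 were called, all higher, beside 71.9% and 4.44%, and between cerebellum and olfactory bulb 5 were called higher and 3 lower, beside 35.3% and 7.69%. Their median differences were 0.0439, 0.0506 and 0.0239, beside 0.0307, 0.0585 and 0.0248 over all bins. Kcnip3, a calcium-binding partner like the other Kcnip genes, had 0.591 in cortex, 0.629 in the olfactory bulb and 0.584 in the cerebellum, and Kcnd1 had 0.614, 0.631 and 0.632. Of the 12 bins of 1 Mb that hold these genes, 9 were called in 5hmC in the olfactory bulb against cortex, all lower, beside 67.7% of all bins, and 12 were lower in the cerebellum than in each other tissue, beside 97.6% against cortex and 91.8% against olfactory bulb.

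The bins of the 7 genes held a median of 559.5 CpG sites per 100 kb, from 344 to 1741, where the median of all bins was 751. The low median came from Dpp6, Dpp10, Kcnd2 and Kcnip4, at 4.18 to 6.15 CpG sites per kb, while Kcnd3, Kcnip1 and Kcnip2 had 9.93, 9.73 and 14.3. Across the 46 bins Pearson's r between the number of CpG sites and the 5mC level was -0.466 in cortex, -0.493 in the olfactory bulb and -0.366 in the cerebellum, and across all 25664 bins -0.642, -0.641 and -0.622. The bins of 1 gene are neighbours and share its libraries, so these are descriptions. The Kcnd2 start bin, with 698 CpG sites, and the Dpp6 bin lowest in the cerebellum, with 590, were both above the median of 559.5. How far the number of CpG sites bears on their 5mC levels was not tested.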

How the data were processed

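Tissues were profiled by oxBS-seq (5mC) and TAB-seq (5hmC). The authors mapped reads uniquely to mm10 with Bismark (version not given in the sources used here) and tested CpG sites with a binomial model at a coverage minimum, and they deposited levels per bin and library, each a fraction of 1, with no read counts. How sites were combined into bins is not given in the sources used here. The reads behind a bin in a library are therefore not known here, counting error cannot be computed, and the error given is the SD between libraries.

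Bins listed at 0 or 1 in any library were left out (25664 of 26327 bins of 5mC and 2581 of 2641 of 5hmC remained, with all bins of the members). Gene spans came from GENCODE release M 21 on GRCm38, whose chromosome lengths matched the bins. The members and lists were chosen with earlier results of these data known. The bins named are those at each gene's start and end, its lowest and highest in 5mC, and that with the largest difference for each pair of tissues, and others named beside them were chosen after their values were seen. The genes named as most alike are the 3 nearest by Euclidean distance. Every 100 kb or 1 Mb bin overlapping a gene entered its mean with equal weight. Bins were tested with limma 3.58.1 (R 4.3.3) on the log2 of level/(1 − level), all 3 tissues of an assay in 1 fit without a block, with Benjamini-Hochberg adjustment over all bins. The standard error was pooled so strongly over bins that a called bin does not reflect its own spread, and bins of 1 library shift together, so p-values measure the spread between these libraries only. The labels call the replicates technical but from independent mice. Promoter windows came from RefSeq (12 windows for the 7 genes). Python 3.11.15 with numpy 2.4.6, pandas 2.3.3 and matplotlib 3.10.9 was used for the rest. The alternatives were the fraction scale, centred libraries and all bins with levels bounded at 0.001 and 0.999. Another was limma with its trend and robust options together. Others were bins mostly or wholly inside the gene, weights by shared bases and 1 Mb bins of 5mC. The last were flanks of 200 kb or 1 Mb, a replicate block and leaving out each library.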

Additional observations from a re-analysis of the deposited data

Results flagged for a closer look

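At Kcnip4 the 5mC of the gene relative to its flanks lay on opposite sides of 0 in different tissues. It was 0.00232 in olfactory bulb, positive in both libraries, and -0.0402 in cortex and -0.0425 in cerebellum, negative in each library. The difference between tissues was not tested. The olfactory bulb value is small, and with flanks of 200 kb or 1 Mb it was -0.00422 or -0.00425, so that the gene there is better described as level with its flanks than above them. Groups of 3 or fewer libraries were not searched for single libraries that stand apart.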

How the results depend on the processing

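Centring each library on its median changed the most. For 5mC it gave 32 calls between olfactory bulb and cortex, 33 between cerebellum and cortex and 28 between cerebellum and olfactory bulb, and for 5hmC 10 in each, with the majority direction turned in all 6. It also turned the sign of 5mC gene differences in Dpp6 between cerebellum and olfactory bulb (-0.0109), Dpp10 between olfactory bulb and cortex (-0.0144), and Kcnd3 (-0.00019) and Kcnip1 (-0.0278) between cerebellum and cortex. For 5hmC it turned Dpp6, Kcnip2 and Kcnip4 between cerebellum and olfactory bulb (0.0444, 0.0111 and 0.0425), Dpp10 between olfactory bulb and cortex (0.00393), and Kcnd3, Kcnip1, Kcnip2 and Kcnip4 between cerebellum and cortex (0.0221, 0.0156, 0.0300 and 0.0190). Centring by its construction takes away the shift of the whole library. The 5hmC of Dpp10 between olfactory bulb and cortex also turned with bins mostly inside the gene (0.00283) or weights by shared bases (9.09e-05), which leave out or shrink the start bin. With 5mC averaged to 10 bins of 1 Mb there were 3, 8 and 6 calls, and with the 5 bins mostly inside a gene 4 calls for 5hmC between cerebellum and cortex and 3 between cerebellum and olfactory bulb, out of fewer bins. Leaving out 1 library gave 14 to 19, 29 to 36 and 14 to 18 calls for 5mC in the order above and 4 to 7, 7 to 8 and 8 to 8 for 5hmC, with 7 without cortex replicate 2 (4 higher, 3 lower). Lower calls for 5mC moved more than the totals, from 4 to 2 between olfactory bulb and cortex without olfactory bulb replicate 2, from 7 to 4 between cerebellum and cortex without cerebellum replicate 2, and from 4 to 2 between cerebellum and olfactory bulb without either of these. The higher 5hmC call of Dpp6 between cerebellum and cortex was lost without replicate 1 or 3 of cortex or of cerebellum. The size of gene minus flanks moved by more than the SD between libraries, without a turn of sign, in 17 of 21 values with flanks of 200 kb, 11 of 21 with flanks of 1 Mb and 9 of 18 with bins wholly inside the gene. It turned at Kcnip2 with 1 Mb flanks (0.0133 in cortex, 0.0423 in the olfactory bulb and 0.0549 in the cerebellum) and at Kcnip4 in the olfactory bulb with 200 kb or 1 Mb flanks (-0.00422 and -0.00425).

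Replicate numbers were not shown to pair the libraries. Deviations of same-numbered libraries correlated between -0.0932 and 0.0290 for 5mC and between -0.191 and 0.429 for 5hmC. With the replicate block there were 21 (8 of them lower), 36 and 21 calls for 5mC and 4, 8 and 8 for 5hmC, and with a block by the numbers in the library names 18, 35 and 19 for 5mC. The reads behind each bin and library are not in the tables used here, so how far depth limits a bin was not tested, and 2 libraries of a tissue give a poor SD.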
